A study of Mus musculus with 6 samples.

Results

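Forkhead factors bind DNA through a winged-helix domain and divide into subfamilies with different uses. In the embryonic mouse heart Foxc1 and Foxc2 act in cushion, valve and outflow tract development, Foxf1 and Foxf2 mark mesenchyme that receives Hedgehog signals, and Foxp1 is needed for normal cushions and outflow septation. The Foxo proteins are phosphorylated by Akt downstream of insulin and growth factors and then leave the nucleus, and the Foxk proteins bind related DNA sites and have been linked to glycolytic gene control. The 10 genes described here are Foxc1, Foxc2, Foxf1, Foxf2, Foxp1, Foxp2, Foxo1, Foxo3, Foxk1 and Foxk2, out of 21887 protein-coding genes. They are forkhead genes chosen with earlier results of these data known. Further members of the same subfamilies, Foxo4, Foxo6, Foxp3 and Foxp4, are counted among the other forkhead genes. For each of the 10 genes, every listed ATAC-seq peak that touched the gene or the 10 kb on either side was assigned to it.

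ATAC-seq, which uses a transposase to insert adapters into accessible DNA, was applied to cultured cells. They were mesenchymal cells of the mouse atrioventricular cushions, of strain label H- 2Kb-tsA58 transgenic, at passage 6. That transgene carries a temperature-sensitive SV40 large T antigen that can immortalise cells, and it is shared by both groups. Its activity in these cultures was not tested. High-glucose cultures (3 libraries) were kept in 25 mM glucose and normal-glucose cultures (3 libraries) in 5.5 mM glucose, for 48 h, and 54000 cells went into each library. The question behind the design is whether accessibility changes with glucose. No label says that the replicates were separate cultures, so a p-value here reflects only library-to-library spread, possibly technical.

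The high-glucose lists held 22156, 25020 and 22598 peaks in replicates 1, 2 and 3, and the normal-glucose lists held 24263 and 40350 in replicates 1 and 3. Normal-glucose replicate 2 listed 66 peaks, under the minimum of 1000, had none in any of the 10 windows and was left out, so 5 libraries were compared. Read depth is unknown, and a longer list reaches weaker sites. Of 12 cushion mesenchyme markers, 8 had a gene-end peak (one no more than 1 kb from either end of the gene) throughout the 5 libraries, among them Sox9, Snai2, Tbx20 and Tbx3. The same held for 0 of 6 endothelial, 0 of 6 cardiomyocyte, 0 of 5 epithelial and 1 of 5 blood markers (Spi1), against 35.7% of all protein-coding genes. Among the mesenchyme markers, Twist1 and Postn had a gene-end peak in 4 libraries, and Msx2 and Prrx1 in none. The endothelial marker Kdr also had one in 4 libraries, and the blood marker Cd68 in 2.

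The Fox windows were open at most members and closed at 1. In 9 of the 10 windows every library listed a peak, against 53.2% of all protein-coding genes given the same window. The exception was Foxp2, with a single weak peak in a single library. A gene-end peak was listed by every library at 6 of 10 members (Foxc1, Foxf1, Foxo1, Foxo3, Foxk1 and Foxk2), against 35.7% of all genes. Foxf2 had one in 4 libraries, and Foxc2, Foxp1 and Foxp2 each in 1. Windows ran from 22.7 kb (Foxc2) to 617.4 kb (Foxp1), and longer windows have more room for peaks. Per length, the mean over the 5 libraries was highest at Foxc2, 18.48 peaks per 100 kb, then Foxc1 (10.0) and Foxk1 (9.44), and lowest at Foxp1 (1.75), Foxk2 (1.43), Foxo1 (1.38) and Foxp2 (0.04).

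Peaks of the 5 libraries that overlapped were merged into regions, and 64 of the 49048 regions lay in the 10 windows. Of these, 12 (18.8%) were present in all 5 libraries, against 25.1% of all regions, and 24 (37.5%) in 1 library, against 39.7%. Normal-glucose replicate 3, the longest list, held 10 of those 24. Regions within 1 kb of a member's end were in all 5 libraries in 4 of 15 cases, those inside a gene in 6 of 37, and those in the flanks in 2 of 12. Strength is given below as a percentile, the percent of a library's own peaks with an equal or lower −log10 p by the authors. It ranks a peak within its own list, and since the lists differ in length it cannot show a change between libraries.

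**Figure D1:**
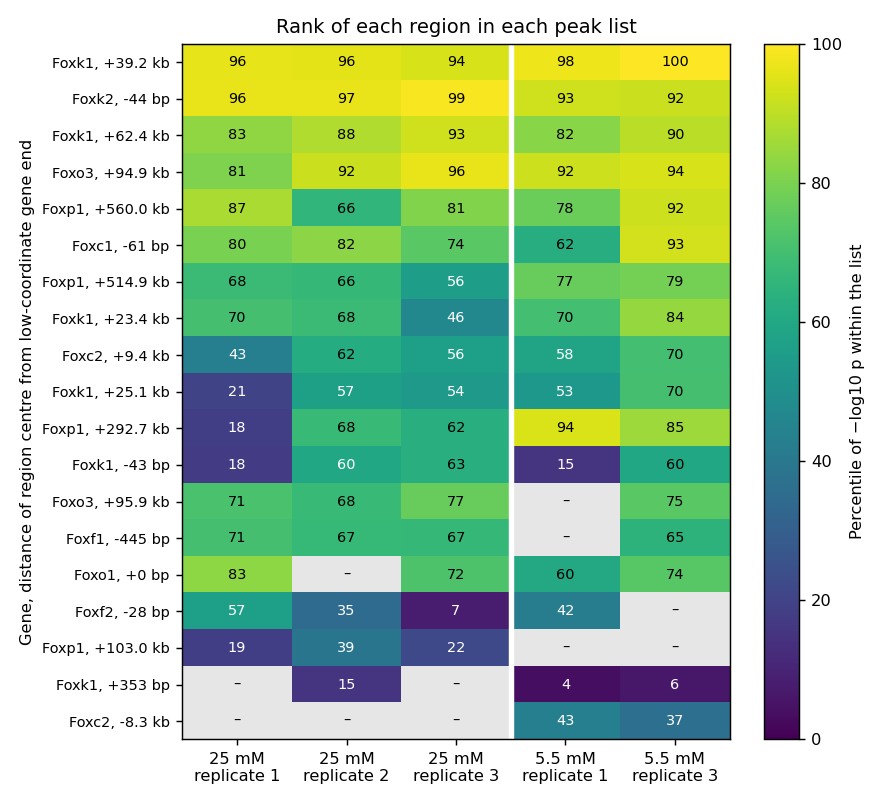
Percentile of each region within each peak list, by column for 25 mM and then 5.5 mM glucose libraries. Rows are regions present in all 5 libraries, regions at a gene end in at least 3, and regions limited to 1 condition, labelled by gene and distance from the low-coordinate gene end, and a dash marks no listed peak. The top row, inside Foxk1, lies between 93.9 and 99.7 in all 5 lists, whereas the 103.0 kb row of Foxp1 has values in the 25 mM columns alone.

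The strongest regions belonged to the Foxk genes. Foxk2 had exactly 1 region in its 69.9 kb window, at chr11:121259813-121260074, over its RefSeq start site at 121259987. Its peak stood at percentiles 96.5, 96.7 and 99.2 in high-glucose replicates 1, 2 and 3, and at 92.6 and 92.1 in normal-glucose replicates 1 and 3. All 5 summits lay just upstream of the start, at -30, -20 and -23 bases in high glucose and at -17 and -57 bases in normal glucose. The authors' fold enrichment over local background was 16.9, 19.6 and 23.1 in high glucose and 13.3 and 14.7 in normal glucose, values scaled within each library. The 250 bases upstream of the start are shown because all 5 summits lie in them. Capitals here and below mark matches to the motifs named further on, which at Foxk2 are 2 CCAAT boxes on the opposite strand, at -74 and -34 bases.
Foxk2, chr11:121259737-121259986, plus strand: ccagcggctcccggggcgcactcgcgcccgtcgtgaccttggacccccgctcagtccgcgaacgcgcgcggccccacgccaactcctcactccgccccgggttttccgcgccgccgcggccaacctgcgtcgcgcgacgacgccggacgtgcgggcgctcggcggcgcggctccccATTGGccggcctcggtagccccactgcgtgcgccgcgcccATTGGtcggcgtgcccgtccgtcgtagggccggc

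Among the 10 members, the Foxk1 window held the most regions shared by all 5 libraries, 5 of its 12 regions in 80.5 kb. Its strongest region was not at an end but inside the gene, at chr5:142440489-142440850, with its centre 39.2 kb from the low-coordinate end. It stood at percentiles 96.2, 96.0 and 93.9 in high-glucose replicates 1, 2 and 3, and at 97.5 and 99.7 in normal-glucose replicates 1 and 3, above every other region of the 10 windows by its lowest value. At the low-coordinate end of Foxk1, the region chr5:142401317-142401591 was weaker and uneven. It stood at 17.5, 59.7 and 63.2 in high glucose and at 15.2 and 60.1 in normal glucose, so that replicate 1 of both groups was low and the groups overlapped. A second region there, starting 134 bases on, was listed in high-glucose replicate 2 and in both normal-glucose libraries, at percentiles 15.3, 3.64 and 6.28. Further inside, regions centred 23.4 and 25.1 kb from that end were shared by all 5 libraries, with lowest percentiles of 46.5 and 20.6. The fifth shared region, chr5:142463719-142464167, lay 1704 bp beyond the other end of Foxk1. It was inside the neighbouring gene Ap5z1, which encodes an adaptor protein subunit, and 512 bp from an end of that gene. It stood at or above the 82.4 percentile in every list, and these data do not assign it to either gene.

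**Figure D2:**
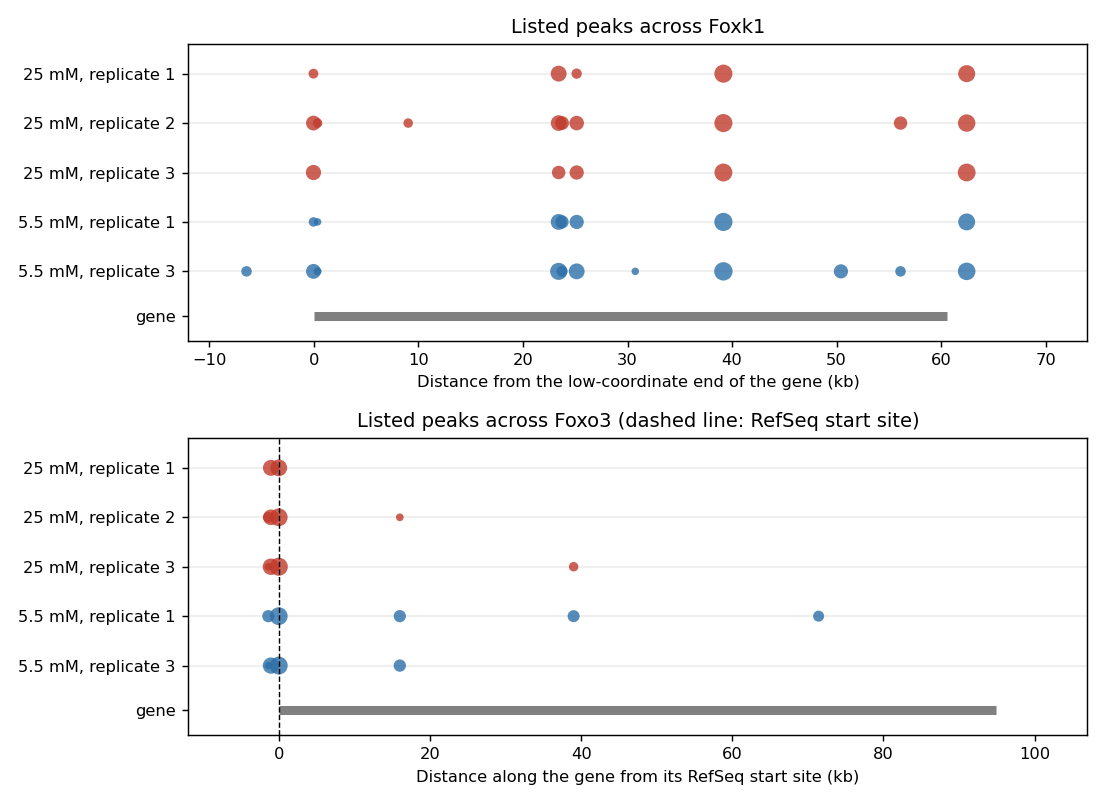
Positions of listed peaks along Foxk1 (top) and Foxo3 (bottom) in kb, 1 row per library with 25 mM above 5.5 mM. A point is a listed peak, its size grows with its percentile and the grey bar is the gene. Foxk1 shows 5 columns of peaks common to all 5 rows, 4 of them away from the low-coordinate end, whereas peaks of Foxo3 gather at its start.

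Both Foxo genes were open at their starts. Foxo3 is a nuclear effector that Akt inactivates, and its region chr10:42276644-42276844 lay over the RefSeq start at 42276695. The percentiles were 80.6, 92.0 and 96.5 in high-glucose replicates 1, 2 and 3, against 92.3 and 94.0 in normal-glucose replicates 1 and 3, within the high-glucose range. Summits fell at -47, -41 and -46 bases in high glucose and at -54 and -51 bases in normal glucose. A second region at chr10:42277602-42277959, with summits about 1 kb upstream, was listed at 71.1, 67.8 and 76.7 in high glucose and at 74.6 in normal-glucose replicate 3. Normal-glucose replicate 1 had no peak there but one in the next region, 62 bases further upstream, at percentile 35.8. Inside Foxo3, 3 regions were each listed in 1 to 3 libraries. The region at chr10:42260593-42260847 was at 4.7 in high-glucose replicate 2 and at 35.5 and 36.1 in normal glucose. The 250 bases upstream of the Foxo3 start, over which all 5 summits lie, hold 1 TEAD-type match at -180.
Foxo3, chr10:42276696-42276945, minus strand: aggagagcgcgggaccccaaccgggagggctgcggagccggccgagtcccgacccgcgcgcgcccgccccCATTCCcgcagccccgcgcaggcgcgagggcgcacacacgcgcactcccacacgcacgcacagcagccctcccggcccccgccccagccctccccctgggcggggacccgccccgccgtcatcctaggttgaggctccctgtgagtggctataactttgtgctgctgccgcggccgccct

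Foxo1, the other Akt-regulated member, had a start region at chr3:52268223-52268452 around the RefSeq start at 52268337. It was listed in 4 libraries, at percentiles 83.0 and 72.0 in high-glucose replicates 1 and 3 and at 60.2 and 73.9 in normal-glucose replicates 1 and 3. High-glucose replicate 2 instead listed a peak 55 bases downstream, at percentile 22.1, so that every library had a peak within 1 kb of the start although no region was common to all 5. Merging peaks within 200 bp, an alternative chosen after seeing the data, joined the pair into 1 region present in all 5 libraries. The rest of the 101.8 kb window held 2 regions, each in 1 library, at percentiles 4.92 and 15.0. The upstream bases are shown because they hold 3 CCAAT boxes on the opposite strand, at -162, -55 and -23. Summits lay at -35 and -43 bases in high glucose and at -62 and -40 bases in normal glucose.
Foxo1, chr3:52268087-52268336, plus strand: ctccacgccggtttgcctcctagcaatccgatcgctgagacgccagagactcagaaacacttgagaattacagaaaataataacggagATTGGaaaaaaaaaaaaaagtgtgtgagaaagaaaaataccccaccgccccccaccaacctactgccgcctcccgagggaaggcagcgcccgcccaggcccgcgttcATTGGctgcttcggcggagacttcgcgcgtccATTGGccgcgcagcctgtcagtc

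Foxc1 was the sole Foxc or Foxf gene whose start region was the same in all 5 libraries. Its region chr13:31806454-31806716 stood at 79.7, 82.5 and 74.3 in high-glucose replicates 1, 2 and 3, and at 62.2 and 93.2 in normal-glucose replicates 1 and 3, values on either side of the high-glucose ones. Summits were at -118, -103 and -121 bases in high glucose and at -121 and -124 bases in normal glucose, further upstream than at the Foxo and Foxk2 starts. A CCAAT box on the opposite strand lies at -101. A second region inside the gene, chr13:31808019-31808376, was listed at 2.3, 74.8 and 51.4 in high glucose and at 50.0 in normal-glucose replicate 1, and it was not listed in normal-glucose replicate 3.
Foxc1, chr13:31806396-31806645, plus strand: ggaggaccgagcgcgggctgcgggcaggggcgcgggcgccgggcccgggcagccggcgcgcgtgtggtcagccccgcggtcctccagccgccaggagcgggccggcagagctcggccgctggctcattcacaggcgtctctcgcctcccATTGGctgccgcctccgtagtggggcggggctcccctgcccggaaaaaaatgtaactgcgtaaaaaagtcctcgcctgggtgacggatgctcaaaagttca

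Foxc2 had almost no signal within 1 kb of its ends, although its window was dense in peaks. The only region within 1 kb of the gene was 1 peak in normal-glucose replicate 1, at percentile 2.45. The other 5 regions of the window lay 2630 bp or more from the gene, and 4 of them were nearer to other genes. The region nearer to Foxc2, chr8:121113378-121113541, was listed at percentile 68.2 in high-glucose replicate 2 and 42.8 in normal-glucose replicate 1. The region chr8:121108072-121108533 covers the end of Mthfsd at 121108413 and was listed at 38.9, 74.7 and 39.3 in high glucose and at 36.1 in normal-glucose replicate 3. The sole region shared by all 5 libraries, chr8:121125269-121125793, lay 1892 bp from Foxl1, another forkhead gene, and 6374 bp from Foxc2. It stood at 43.0, 61.8 and 56.4 in high glucose and at 58.4 and 70.3 in normal glucose. Assigning such peaks to Foxc2 by distance alone is therefore uncertain.

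Foxf1 and Foxf2 were open beside their low-coordinate ends in most libraries. At Foxf1 the region chr8:121083758-121084124, between Foxf1 and the long noncoding RNA gene Fendrr, was listed at 70.6, 67.0 and 66.7 in high-glucose replicates 1, 2 and 3 and at 64.8 in normal-glucose replicate 3. Normal-glucose replicate 1 lacked it but listed a peak 84 bases away, at percentile 17.0, and merging within 200 bp joined them. At Foxf2, the region chr13:31625646-31625931 over the RefSeq start at 31625816 was listed at 56.6, 34.9 and 7.47 in high glucose and at 42.2 in normal-glucose replicate 1. The longest list, normal-glucose replicate 3, had no peak there, and its sole Foxf2 peak lay 1148 bp beyond the other gene end, at percentile 38.8.

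Foxp1, a long gene, was open at scattered internal regions, while Foxp2 was nearly without peaks. The 617.4 kb Foxp1 window held 25 regions, 3 of them in all 5 libraries and 12 in 1 library. The strongest shared one by its lowest value, chr6:99485212-99485572, stood at 87.3, 66.0 and 81.2 in high-glucose replicates 1, 2 and 3, and at 77.6 and 92.2 in normal-glucose replicates 1 and 3. Its summits were between 35546 and 35641 bases downstream of the first RefSeq start. The region chr6:99217895-99218094, deep in the gene, was at 18.5, 67.7 and 62.5 in high glucose and at 94.3 and 85.2 in normal glucose, and chr6:99440070-99440338 was at or above 56.1 in every list. In Foxp2, whose window spans 560.6 kb, the single peak lay 396 bp outside the low-coordinate end, at percentile 6.93 in normal-glucose replicate 3, and none was listed in the other 4 libraries.

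The 3 RefSeq starts of Foxp1 differed from each other. Within 1 kb of the first, at 99520993, high-glucose replicates 1, 2 and 3 and normal-glucose replicate 3 had a peak, at no more than the 50.1 percentile in the 3 regions nearest to it. The one region within 1 kb of a Foxp1 gene end, chr6:99523347-99523508, lay 601 bp outside the high-coordinate end and was listed in normal-glucose replicate 3 alone, at percentile 55. The second start, at 99266515, had no peak within 1 kb in any library. The last, at 99028298, lay under a region, chr6:99028250-99028499, that was present in the 3 high-glucose libraries and in none of normal glucose. Its percentiles were 18.7, 38.8 and 22.0 in high-glucose replicates 1, 2 and 3, with no listed peak in normal-glucose replicates 1 and 3, and its summits lay at -3, 5 and -22 bases from the start. The authors' −log10 q of those peaks was 3.71, 5.47 and 4.05. All are modest, and at a −log10 q of at least 5 high-glucose replicate 2 alone kept its peak. The second and last starts are printed together to show how they differ. The upstream bases of the last hold 34 CpG dinucleotides and those of the second hold 3.
Foxp1, second start, chr6:99266516-99266765, minus strand: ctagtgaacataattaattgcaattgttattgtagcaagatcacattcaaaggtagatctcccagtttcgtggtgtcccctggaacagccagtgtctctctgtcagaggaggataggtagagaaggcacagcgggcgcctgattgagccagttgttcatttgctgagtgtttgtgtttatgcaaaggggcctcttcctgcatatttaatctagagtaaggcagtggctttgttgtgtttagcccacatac
Foxp1, last start, chr6:99028299-99028548, minus strand: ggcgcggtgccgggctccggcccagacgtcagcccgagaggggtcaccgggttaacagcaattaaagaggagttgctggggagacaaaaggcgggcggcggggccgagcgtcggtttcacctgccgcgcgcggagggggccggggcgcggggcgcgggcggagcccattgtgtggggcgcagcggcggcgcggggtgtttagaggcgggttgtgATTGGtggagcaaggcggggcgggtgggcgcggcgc

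**Figure D3:**
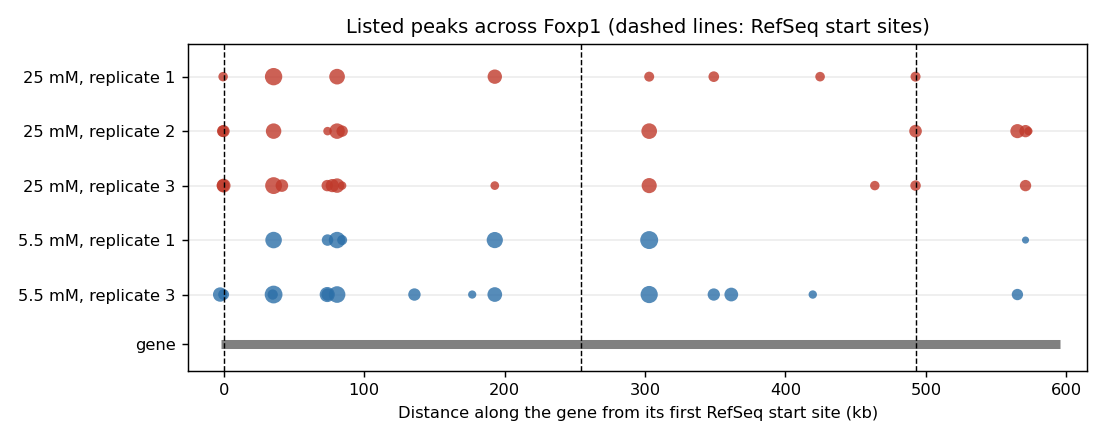
Listed peaks along Foxp1, in kb from its first RefSeq start site, 1 row per library with 25 mM above 5.5 mM. Points are listed peaks sized by percentile, the grey bar is the gene and dashed lines are the 3 RefSeq starts. No row has a peak at the middle line, and the 3 rows of 25 mM alone have one at the last line.

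RefSeq start windows were held for 6 of the 10 members (Foxc1, Foxf2, Foxp1, Foxo1, Foxo3 and Foxk2), 8 windows of 300 bases in all. A peak touched the window in all 5 libraries at 3 of the 8, those of Foxc1, Foxo3 and Foxk2, against 21.7% of the 32851 windows of all genes. The 250 upstream bases of those 3 held 29, 31 and 48 CpG dinucleotides, against a median of 19 over all windows open in all 5 libraries and 3 over windows open in none. The upstream bases of Foxk2 had more CpG than 99.8% of all windows and a GC content of 78.4%. Foxo1 and Foxf2, with 20 and 21 CpG, were open in 4 libraries, and the first Foxp1 start, with 11, in 3. The last Foxp1 start had more CpG, 34, than Foxc1 and Foxo3, yet was listed in 3 libraries.

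**Figure D4:**
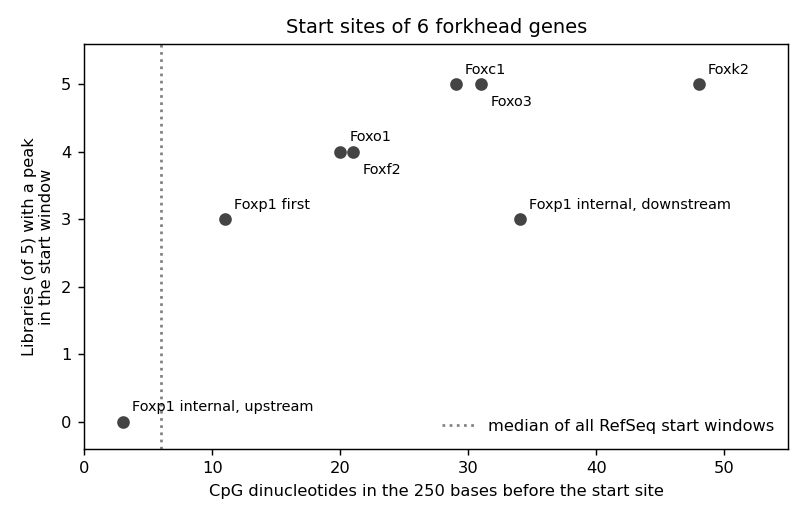
Number of libraries with a peak in the 300-base start window against the number of CpG dinucleotides in the 250 bases before the start, for 8 starts of 6 genes. The dotted line is the median of all RefSeq windows, 6 CpG. The second Foxp1 start, with 3 CpG, is at 0 libraries and the 3 starts at 5 libraries have 29 or more.

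The 6 motifs were searched on both strands in the same upstream bases. The forkhead site TGTTTAC matched none of the 8 windows, against 3.17% of all windows, and TGTTTGC matched 1, the first Foxp1 start at -167, against 4.3%. The insulin response core TGTTTTG (5.56% of all windows) and the AP-1 site TGANTCA (6.75%) matched none. The TEAD site GGAATG matched 2, at Foxo3 and the first Foxp1 start, against 12.6%. CCAAT, a motif added after the sequences were seen, matched 4 windows, those of Foxc1, Foxo1, Foxk2 and the last Foxp1 start, against 33.8%. A match describes letters and is no evidence of binding.

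Between the conditions, no member had peak counts that separated the groups. Foxk1 had 5, 10 and 5 peaks in high-glucose replicates 1, 2 and 3, and 7 and 11 in normal-glucose replicates 1 and 3. High-glucose replicate 2 lay between the normal-glucose values, and the difference of means was -2.33 (p = 0.4, two-sided exact permutation test). Foxc2 had 2, 5 and 3 peaks in high glucose and 5 and 6 in normal glucose, a difference of -2.17 (p = 0.4, exact permutation test), with high-glucose replicate 2 equal to the lower normal-glucose library. Foxp1 had 8, 11 and 13 in high glucose and 7 and 15 in normal glucose, a difference of -0.33 (p = 1, exact permutation test). Foxo3 had 2, 5 and 4 in high glucose and 5 and 4 in normal glucose, and Foxc1 had 3, 2 and 3 in high glucose and 2 and 2 in normal glucose. Foxk2 had 1 in every library. The other 4 members, Foxf1, Foxf2, Foxp2 and Foxo1, held 0 to 3 peaks per library.

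Counts did not overlap between the conditions for 0 of the 10 members, against 9.27% of the 15841 genes with any peak, 0.372% higher and 8.9% lower in high glucose. The median difference was -0.25 peaks over the 10 members and -0.5 over all genes with any peak. The smallest exact permutation p among the members was 0.4, and 3 libraries against 2 allow no p below 0.2. Every p adjusted over the genes with any peak (Benjamini-Hochberg) was 1. Without high-glucose replicate 2, 3 of the 10 members had no overlap (Foxc1 higher and Foxc2 and Foxk1 lower in high glucose), against 15.9% of genes with any peak. Without normal-glucose replicate 1 there were 4, Foxc2, Foxp1, Foxp2 and Foxk1, all lower in high glucose, against 43.6% of genes with any peak. Without normal-glucose replicate 3 there was 1, Foxp1, higher in high glucose, against 19.9%. With lists of equal length (the top 22149 peaks of each), Foxp1 alone was without overlap, with 8, 9 and 13 peaks in high glucose and 6 and 7 in normal glucose (difference 3.5, p = 0.2, exact permutation test, the smallest possible). At that length 2.25% of genes with any peak had counts higher in high glucose without overlap and 2.64% lower.

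**Figure D5:**
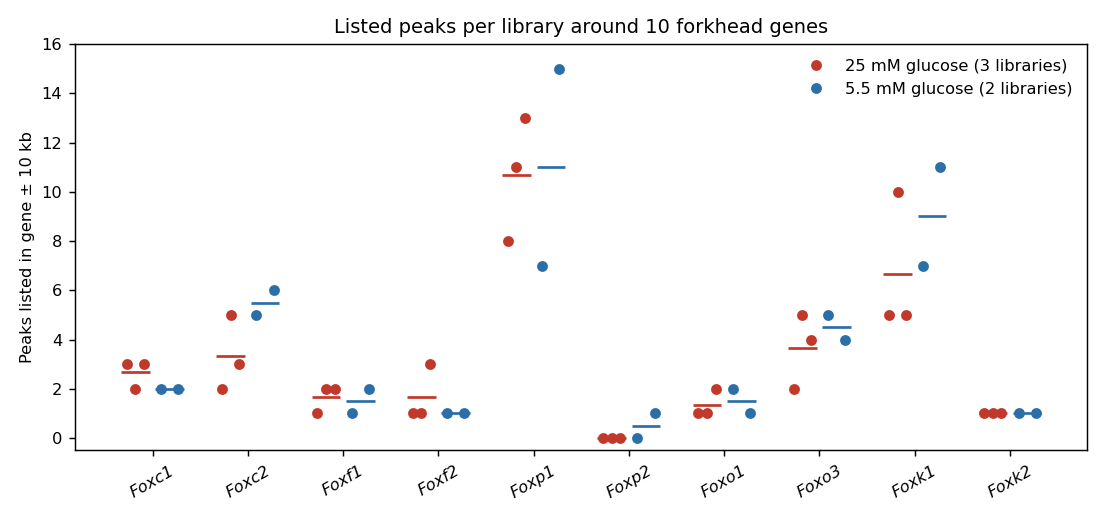
Listed peaks within each gene and 10 kb either side, per library, with 25 mM left of 5.5 mM for every gene. Points are libraries and lines are group means. The groups overlap or touch at every gene, most widely at Foxp1, where normal glucose spans 7 to 15.

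Single regions limited to 1 condition were rare in the windows. The last Foxp1 start was the sole high-glucose region, 1 of 64 against 0.167% of all regions. It stayed limited to high glucose with lists of equal length and after merging within 200 bp. Neither setting could bring in normal glucose, since shortening a list adds no peak and no other region lay within 200 bp. At a −log10 q of at least 5 it was no longer so, as high-glucose replicate 2 alone listed it. The sole normal-glucose region, against 3.73% of all regions, was chr8:121107784-121107923 in the Foxc2 window, at percentiles 43.3 and 36.6 in normal-glucose replicates 1 and 3. It lay inside Mthfsd, 490 bp from its end and 148 bases from a region that all 3 high-glucose libraries listed, and merging within 200 bp joined the pair. With equal list lengths it was listed in normal-glucose replicate 1 alone, while the Mthfsd end region became limited to high glucose. At that length 0.956% of all regions were limited to high and 1.62% to normal glucose. Without high-glucose replicate 2, 3 of 63 regions in the windows were limited to high glucose, against 0.503% of all regions, and 6 to normal glucose, against 6.45%. Without normal-glucose replicate 1, 3 of 60 were limited to high glucose, against 0.327%, and 11 to normal glucose, against 28.6%. Without normal-glucose replicate 3, 4 of 55 were limited to high glucose, against 3.1%, and 5 to normal glucose, against 10.6%.

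Of the other 34 forkhead genes, 10 were open at a gene end in every library, against 35.7% of all genes. They were Foxa3, Foxd2, Foxh1, Foxj1, Foxj3, Foxm1, a regulator of mitotic genes, Foxn2, Foxo4, Foxo6 and Foxp4. At 18 of the 34 no library had a gene-end peak, among them Foxa1 and Foxl2. The matching share over all genes was not computed. Counts did not overlap for 3 of the 34 (Foxq1, Foxn1 and Foxh1), all lower in high glucose. The share lower was 8.9% over all genes with any peak. Of the 34, 10 had no peak in any library and could not be called, so the bases differ. By the sum of absolute differences in window peak counts over the 5 libraries, Foxk2 was matched exactly by Foxp3 and Foxr2, and Foxp2 by Foxa2. Foxf1 differed from Foxo4, and Foxo1 from Foxn4, by 1 peak, whereas Foxp1 differed by 33 peaks from the nearest, Foxn3. Such a sum ignores where in a window the peaks lie. Gene-end peaks were listed by 5 libraries at Foxk2 and Foxo1, but by 0 at Foxp3, Foxr2 and Foxn4. Foxf1 and Foxo4 both had them in 5 libraries, and Foxp2 and Foxa2 both in 1.

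Of 24 Foxo target genes, 16 were open at a gene end in every library, against 35.7% of all genes, among them Cdkn1b, a cell cycle inhibitor, Irs2, an insulin signalling adaptor, and Sod2, a mitochondrial superoxide dismutase. Gene ends were without a listed peak in all 5 libraries at G6pc, Igfbp1, Pdk4 and Trim63. The remaining targets lay in between, with a gene-end peak in 2 libraries at Pck1, 3 at Bcl6 and Fbxo32, and 4 at Bnip3. Counts did not overlap for 1 of the 24 targets, Irs2, lower in high glucose, against 8.9% of genes with any peak. Of the 24, 3 had no peak in any library and could not be called. Of 13 genes that control Foxo proteins, 7 were open at a gene end in every library, including Akt2 and Sirt1, and all 13 had a window peak in all 5, against 53.2% of all genes. Counts without overlap were found for 0 of the 13, against 9.27% of genes with any peak. The median difference was -0.33 peaks for targets and for control genes. It was -0.5 over genes with any peak, a base that leaves out genes without peaks, which the target list includes.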

How the data were processed

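ATAC-seq peak lists of 6 libraries were used, 1 per library, with groups and replicate numbers from the labels. Per the submitters' processing notes, which state neither roles nor settings, the tools were MACS2 2.1.0, Bowtie 1.0.0 and DiffBind 1.12.3, with SAMtools 0.1.19, cutadapt 1.0 and Picard 1.90, on mm10. Duplicate handling and transposase offset are not given in the sources used here. Each deposited list holds the authors' score, fold enrichment ratio, −log10 p-value and −log10 q-value for each peak, and no read counts, so depth is unknown.

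Overlapping peaks (by 1 bp or more) on the autosomes, X and Y formed 1 region. Genes, start sites and promoter sequences were those of RefSeq on GRCm38.p6, which shares the coordinates of mm10. Strand and start sites were held for 6 members, and for the others the text speaks of gene ends. Difference of mean peak counts was tested by a two-sided exact permutation test for every protein-coding gene. All 10 members are named, with every region within 1 kb of an end, the strongest region and the regions limited to 1 condition. Other forkhead genes are named if open at a gene end in all 5 libraries or nearest in counts, and further examples were chosen after their values were seen. The members and lists were chosen with earlier results of these data known. Code was tested on simulated lists. Python 3.11.15, pandas 2.3.3 and bedtools 2.31.1 were used.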

Additional observations from a re-analysis of the deposited data

How the results depend on the processing

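Settings were changed one at a time. Members with a peak in every library numbered 6 to 9 under every setting except all 6 libraries, and shared regions 9 to 17, while with all 6 libraries both were 0, as was the number of normal-glucose regions, because normal-glucose replicate 2 listed no peak there. High-glucose regions numbered 0 at a −log10 q of at least 5, 2 at equal list length and 1 to 4 with single libraries left out. Normal-glucose regions numbered 2 at that q, 0 at equal length, 0 in windows of 1 kb, 2 when merging needed an overlap of 50 bp, 0 after merging within 200 bp and 1 to 11 with single libraries left out. Members without overlap in peak counts numbered 1 at equal length and 0 to 4 with single libraries left out. Fewer libraries make each of these requirements easier to meet.

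Differences in peak counts turned sign in 13 cases, and the cause was not tested. Among these cases, Foxp1 counts were higher in high glucose without overlap at equal length. The same held without normal-glucose replicate 3, where normal-glucose replicate 1 alone remained. At equal length the differences that turned were 0.33 (Foxc2), 3.5 (Foxp1) and 0.67 (Foxk1). With all 6 libraries they were 3.33 (Foxp1), 0.33 (Foxo1), 0.67 (Foxo3) and 0.67 (Foxk1). With single libraries left out they ran between -4.33 (without normal-glucose replicate 1) and 3.67 (without normal-glucose replicate 3) for Foxp1, with 1.0 without high-glucose replicate 1. The same range was -0.33 to 0.67 for Foxf1 and -0.67 to 0.33 for Foxo1. They were -3.0 (Foxf1) in windows of 50 kb and -0.33 (Foxf2) at a −log10 q of at least 5.

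With the replicate number as a block, the mean difference over the same-numbered pairs 1 and 3 turned no sign, with -4.0 for Foxk1, -3.0 for Foxc2, -1.5 for Foxo3, -0.5 for Foxp1 and Foxp2, 1.0 for Foxc1 and Foxf2, and 0.0 for Foxf1, Foxo1 and Foxk2. The smallest possible exact p was 0.5. Deviations from the group means correlated at 0.006 and -0.012 over genes for the same-numbered pairs. The deviations of the normal-glucose libraries mirror each other by construction, so these values cannot show whether same-numbered libraries were paired. Depth in reads is unknown, which limits every statement on a missing peak to the authors' threshold.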
